A study of Mus musculus with 4 samples.

Results

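The 10 genes Trp53, Cdkn1a, Mdm2, Ccng1, Bbc3, Bax, Trp53inp1, Phlda3, Zmat3 and Sesn2, of 32285 genes in the count matrices, were followed in mouse hematopoietic stem and progenitor cells at homeostasis and 9 days after 5-fluorouracil (5-FU). They were taken by symbol, as Trp53 and 9 genes that p53 is known to switch on, and all 10 had at least 50 unique molecular identifiers (UMIs, 1 per captured RNA molecule) in both libraries. The cells were LSK cells (lineage-negative, Sca-1-positive, cKit-positive bone marrow cells) of C57BL/6 mice. Each of 2 libraries held a wild-type and a knockout pool of 2 mice, told apart by hashtag antibodies whose genotypes were taken from the study's methods.

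Both genotypes carried the floxed allele, Sin3B F/F. Knockout mice carried Vav1-iCre as well, which is active in the hematopoietic lineage from embryonic life on and is used to delete Sin3B there. Sin3b RNA was still counted in the knockout pools (23.3 and 15.1 CPM), and whether every cell had lost the gene was not tested. The 5-FU mice had received a single intraperitoneal dose of 100 mg/kg, and the homeostasis mice, which were male per the methods, had received none. Ages were not given in the sources used here. With animals pooled, the spread between mice could not be measured, and condition and library cannot be told apart, so genotypes were compared within a library. All intervals given are 95% intervals that cover counting error only.

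p53 is a transcription factor that is held at low levels by Mdm2 and is stabilized when DNA is damaged or replication is disturbed. Its targets halt the cell cycle, repair damage or start apoptosis, and in the bone marrow it limits how many stem and progenitor cells survive genotoxic stress. 5-FU blocks thymidylate synthase and is incorporated into RNA and DNA, and it kills dividing progenitors while sparing mostly quiescent stem cells.

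After filtering, the homeostasis pools held 10184 cells (wild type) and 4108 cells (knockout) and the 5-FU pools 4855 and 3307, with median depths of 6606.5 to 10935 UMIs per cell and pool totals of 31901720 to 82876977 UMIs. Kit was at 194 to 383 CPM (a gene's UMIs scaled to one fixed total for every pool) and Ly6a, which encodes Sca-1, at 75.9 to 154 CPM in the 4 pools. Sin3b, the deleted gene, was at 81.7 CPM in wild-type and 23.3 CPM in knockout cells at homeostasis, and at 112.7 and 15.1 CPM after 5-FU. The summed markers of megakaryocyte-erythroid-primed cells were higher in knockout pools, at 308 against 161 CPM at homeostasis and 893 against 524 CPM after 5-FU, and those of lymphoid-primed cells were lower, at 586 against 827 and 125 against 235 CPM. Neutrophil-primed markers were lower in knockout pools (496 against 600 and 607 against 843 CPM) and LT-HSC markers higher (2148 against 1688 and 1015 against 939 CPM). Across all cells of a pool, a change in the makeup of cell types and a change in RNA per cell cannot be told apart. Of the kept barcodes, 26 occurred in both libraries.

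p53 binds response elements in or near many of its target genes, and promoter sequences were searched for the p53 response element, a pair of units of 10 bases with a spacer of at most 1 base, on both strands. RefSeq promoter windows (GRCm38.p6, 250 bases before to 50 after a start) were matched by symbol for 8 of the 10 genes. Trp53inp1 and Zmat3 were not matched. Elements with at most 2 mismatches were present in the windows of Cdkn1a, Ccng1 and Bax. They are shown in capitals to let the 3 elements be compared, as matches of letters and not as measured binding, with the bases around them in lower case, 5′ to 3′ on the gene's strand.
Cdkn1a, chr17:29090888-29090978, plus strand: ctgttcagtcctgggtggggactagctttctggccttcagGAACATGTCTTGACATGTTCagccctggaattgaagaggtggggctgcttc
Ccng1, chr11:40755422-40755521, minus strand: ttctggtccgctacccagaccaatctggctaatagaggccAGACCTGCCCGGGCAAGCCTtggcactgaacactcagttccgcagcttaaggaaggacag
Bax, chr7:45467039-45467139, minus strand: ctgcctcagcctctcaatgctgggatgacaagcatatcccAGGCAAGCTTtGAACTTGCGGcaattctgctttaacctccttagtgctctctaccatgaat
The Cdkn1a and Ccng1 elements had 1 mismatch and began 51 and 195 bases before the start. For Cdkn1a this is the upstream start, and the window of its other start lies further downstream, at chr17:29093519-29093818. The Bax element had 2 mismatches and a spacer of 1 base, and began 201 bases before the start. Of all 32851 promoter windows of this length, 0.110% held an element with at most 1 mismatch and 0.682% with at most 2. The windows of Trp53, Mdm2, Bbc3, Phlda3 and Sesn2 and of a second start of Cdkn1a held none at these limits. Mdm2 is known to be driven by p53 from an internal promoter that this window does not cover.

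Over all kept cells, none of the 9 p53 targets differed by 1.5-fold between the genotypes. Of the 10 genes, 3 had an interval above 0 and 3 below 0 at homeostasis, and 1 above and 4 below after 5-FU. Of all genes tested, the interval lay above 0 for 24.5% and below 0 for 23.3% at homeostasis, while the 5-FU shares were 23.5% and 27.7%. The summed level of the 9 targets was 182 CPM in wild-type and 184 CPM in knockout cells at homeostasis, a log2 ratio of knockout over wild type of 0.02 (-0.02 to 0.06). In the 5-FU library the sum was 216 and 205 CPM, a log2 ratio of -0.07 (-0.11 to -0.03), and of -0.20 without Bax, which has the most UMIs. None of the 10 genes reached a 1.5-fold difference in either library, where 10.6% of 15509 genes at homeostasis and 8.48% of 13510 genes after 5-FU did, counting genes with at least 50 UMIs. The intervals lay wholly within 1.5-fold for 6 of the 10 genes at homeostasis and 7 of 10 after 5-FU. The median log2 ratio of the 10 genes was -0.05 and -0.08, beside 0.01 and -0.02 over all genes tested.

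**Figure D1:**
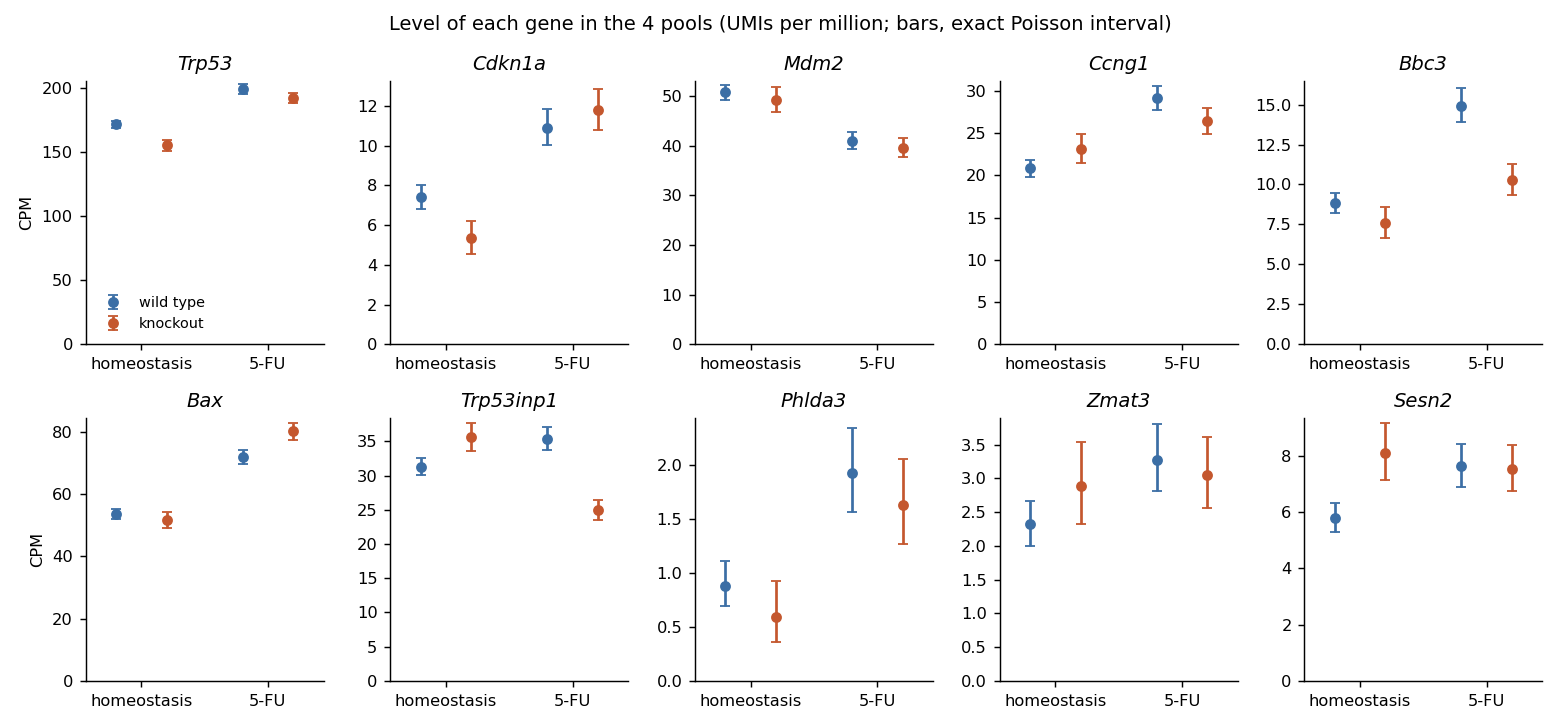
Level of each gene in the 4 pools, in CPM on axes that start at 0, with wild-type cells in blue and knockout cells in orange and bars for the exact Poisson 95% interval of 1 pool. Bbc3 and Trp53inp1 were lower in knockout cells after 5-FU (10.3 against 14.9 and 24.97 against 35.4 CPM), and Phlda3 and Zmat3 were below 4 CPM in every pool.

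A fit over the 4 pools, with library as a term and 1 residual degree of freedom, used the 2 libraries as the only replication of the genotype difference. By edgeR's quasi-likelihood test with Benjamini-Hochberg adjustment, 0 of the 10 genes passed an adjusted p of 0.05, where 312 of 17202 genes (1.81%) did. Bbc3 was the only one with an unadjusted p under 0.05, at a log2 ratio of -0.37 and an adjusted p of 0.259, and it was lower in both knockout pools. DESeq2 called 0 of the 10, with 0 at an unadjusted p under 0.05.

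Trp53 (ENSMUSG00000059552, chr11:69580359-69591873, plus strand, all gene positions from GENCODE M21, GRCm38), which encodes p53 itself, was at 172 CPM in wild-type and 155 CPM in knockout cells at homeostasis, a log2 ratio of -0.14 (-0.19 to -0.10), which was -0.084 with both genotypes weighted to the same cluster makeup. Its 5-FU levels were 199 and 192 CPM, a log2 ratio of -0.05 (-0.09 to -0.01). p53 is controlled mostly at the level of the protein, which was not measured. Mdm2 (ENSMUSG00000020184, chr10:117688875-117710758, minus strand), the ubiquitin ligase that marks p53 for degradation and is itself a target, was at 50.7 and 49.2 CPM at homeostasis (-0.04, -0.13 to 0.04). After 5-FU its levels were 40.998 and 39.5 CPM (-0.05, -0.15 to 0.04). For Mdm2 both intervals held 0, and they lay within 1.5-fold.

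Cdkn1a (ENSMUSG00000023067, chr17:29090976-29100727, plus strand) encodes p21, the inhibitor of cyclin-dependent kinases through which p53 halts the cell cycle. At homeostasis it was at 7.40 CPM (613 UMIs) in wild-type and 5.33 CPM (170 UMIs) in knockout cells, a log2 ratio of -0.47 (-0.73 to -0.23). In the 5-FU pools it was at 10.9 and 11.8 CPM, a log2 ratio of 0.11 (-0.06 to 0.29). The homeostasis ratio was -0.22 (-0.65 to 0.17) where a hashtag had to hold 80% of a cell's hashtag UMIs, a rule that kept 6137 cells (wild type) and 869 cells (knockout) of that library, and 4956 and 4054 after 5-FU. It was -0.49 with both genotypes weighted to the same cluster makeup and -0.22 so weighted with clusters made without genes past 1.5-fold between genotypes. The difference between the libraries was not tested. Ccng1 (ENSMUSG00000020326, chr11:40748552-40755311, minus strand), which encodes cyclin G1, was at 20.8 and 23.1 CPM at homeostasis (0.15, 0.03 to 0.28) and at 29.1 and 26.4 CPM after 5-FU (-0.14, -0.25 to -0.03). With both genotypes weighted to the same cluster makeup, the homeostasis ratio of Ccng1 was -0.10, the opposite direction. It was 0.11, the same direction, when so weighted with clusters made without genes past 1.5-fold between genotypes. The 5-FU ratio of Ccng1 was -0.06 (-0.17 to 0.05) under the 80% hashtag rule.

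Among the genes of apoptosis, Bbc3 (ENSMUSG00000002083, chr7:16308393-16318205, plus strand), which encodes the BH3-only protein Puma, was at 8.83 and 7.59 CPM at homeostasis (-0.22, -0.44 to -0.01). That ratio was -0.47 with the same cluster makeup, and -0.26 so weighted with clusters made without genes that differed between genotypes. The unweighted interval held 0 under the 80% hashtag rule (-0.62 to 0.13) and without the quality trim (-0.37 to 0.03). The 5-FU pools held 14.9 CPM in wild-type and 10.3 CPM in knockout cells, a log2 ratio of -0.54 (-0.71 to -0.37). This was the largest difference of the 10 genes in the 5-FU library, and it ranged from -0.64 to -0.41 over 10 alternatives in processing. Bax (ENSMUSG00000003873, chr7:45461697-45466898, minus strand), the pore-forming effector that Puma helps to activate, was at 53.5 and 51.6 CPM at homeostasis (-0.05, -0.14 to 0.03) and was higher in knockout cells after 5-FU, at 71.9 and 80.2 CPM (0.16, 0.09 to 0.23). With both genotypes weighted to the same cluster makeup the 5-FU ratio of Bax was 0.059, and 0.033 with clusters made without genes that differed between genotypes. In cells thinned to 4000 UMIs it was 0.094 (-0.03 to 0.22).

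Trp53inp1 (ENSMUSG00000028211, chr4:11156431-11174379, plus strand), a stress-induced protein that binds p53 and acts in autophagy, was at 31.3 CPM in wild-type and 35.6 CPM in knockout cells at homeostasis (0.19, 0.08 to 0.29). After 5-FU the order was turned, at 35.4 and 24.97 CPM, a log2 ratio of -0.50 (-0.61 to -0.39). With both genotypes weighted to the same cluster makeup, the 5-FU ratio was -0.26, and -0.33 with clusters made without genes that differed between genotypes. Sesn2 (ENSMUSG00000028893, chr4:132492032-132510501, minus strand), a sestrin that restrains mTORC1 under stress, was at 5.80 and 8.12 CPM at homeostasis (0.49, 0.26 to 0.71) and at 7.64 and 7.54 CPM after 5-FU (-0.02, -0.23 to 0.20). Its homeostasis ratio was 0.17 with the same cluster makeup, and 0.41 so weighted with clusters made without genes that differed between genotypes. That ratio was 0.73 where a hashtag had to hold 80% of a cell's hashtag UMIs.

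Phlda3 (ENSMUSG00000041801, chr1:135766119-135769136, plus strand), an inhibitor of Akt, had the fewest UMIs of the 10 genes. It was at 0.881 CPM (73 UMIs) and 0.596 CPM (19 UMIs) at homeostasis, and at 1.93 and 1.63 CPM after 5-FU, with intervals of the ratio from -1.38 to 0.18 and from -0.70 to 0.21. Zmat3 (ENSMUSG00000027663, chr3:32334792-32366014, minus strand), a zinc finger protein that binds RNA, was at 2.32 and 2.88 CPM at homeostasis (0.32, -0.06 to 0.68) and at 3.28 and 3.05 CPM after 5-FU (-0.10, -0.44 to 0.23). For both genes the homeostasis interval reached past 1.5-fold, so a difference of that size was neither shown nor left out by these counts. The homeostasis ratio of Phlda3 was 0.46 with the same cluster makeup, the opposite direction. It was -0.26, the same direction, when so weighted with clusters made without genes that differed between genotypes.

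**Figure D2:**
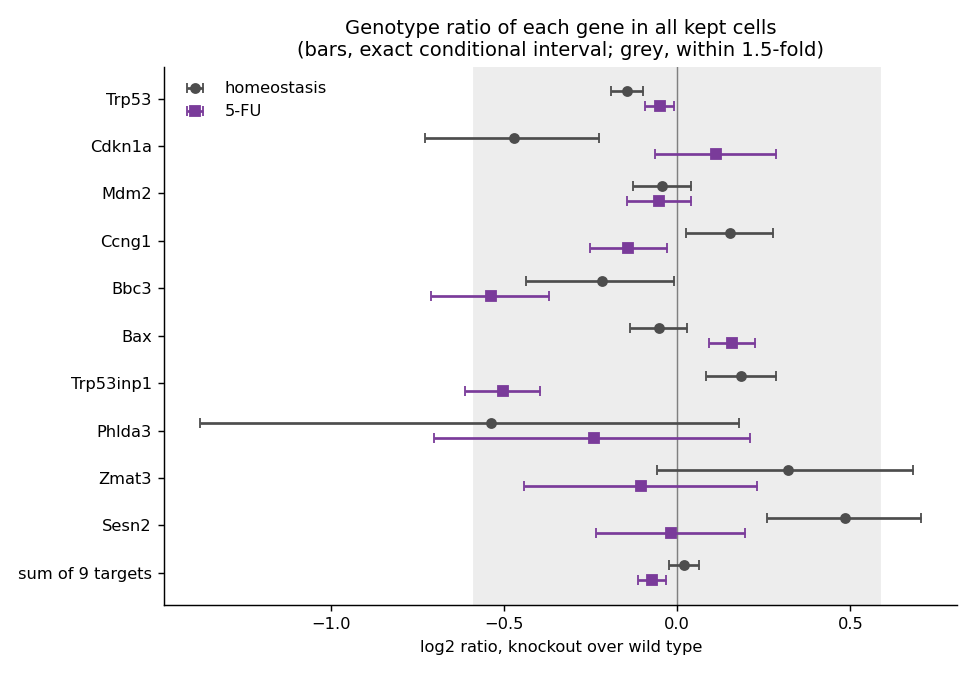
Log2 ratio of knockout over wild type for each gene and for the sum of the 9 targets, with exact conditional 95% intervals, in grey circles at homeostasis and purple squares after 5-FU. The grey band marks differences within 1.5-fold, and every point lies inside it, with Bbc3 (-0.54) and Trp53inp1 (-0.50) after 5-FU and Phlda3 (-0.54) at homeostasis nearest to its lower edge.

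Few molecules of these genes were captured per cell. Every cell was thinned to 4000 UMIs, without the cells that had fewer (484 and 228 of the homeostasis pools, wild type first, and 512 and 170 of the 5-FU pools). A Trp53 UMI was then found in 48.9% (wild type) and 44.4% (knockout) of the homeostasis cells and in 53.3% and 51.5% of the 5-FU cells. Unthinned, these shares were 68.5%, 63.3%, 75.3% and 79.8%. Thinned cells held a Cdkn1a UMI in 2.67% (wild type) and 1.44% (knockout) of cells in the homeostasis library and in 3.34% and 3.60% after 5-FU, against 5.11%, 3.19%, 8.18% and 10.3% unthinned. On average a thinned cell had UMIs of 0.673 (wild type) and 0.685 (knockout) of the 9 targets at homeostasis, and of 0.806 and 0.759 after 5-FU. No target at all was detected in 48.7% and 47.2% of cells, and in 41.9% and 44.2% after 5-FU. Most cells thus held a UMI of 0 or 1 targets at this depth in both genotypes.

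Cells of each library were clustered without the 10 genes, and clusters were named from markers of hematopoietic lineages. The neutrophil-primed-like cluster at homeostasis was led by replication genes such as Ung and Uhrf1, and a 5-FU cluster led by histone transcripts, whose markers were those of megakaryocyte-erythroid-primed cells, is called by its leading genes. Levels given for a cluster without a genotype are over both genotypes together, which clusters held in unequal shares. The lowest Cdkn1a cluster at homeostasis held 781 wild-type and 29 knockout cells, and the highest 1245 and 92. Of the 8 genes without Phlda3 and Zmat3, Cdkn1a had the widest range between clusters in both libraries. At homeostasis it ran from 1.57 CPM (0.72 to 2.98) in a cluster like long-term hematopoietic stem cells (LT-HSC-like) to 13.8 CPM (11.6 to 16.3) in the lymphoid-primed-like cluster, an 8.79-fold range. The neutrophil-primed-like cluster was at 11.6 CPM and the megakaryocyte-erythroid-primed-like cluster at 3.16 CPM. After 5-FU it ran from 2.53 CPM (1.42 to 4.17) in the cluster led by Abcg3 and H2-Aa to 22.0 CPM (19.5 to 24.7) in the neutrophil-primed-like cluster. The lymphoid-primed-like cluster was then at 17.1 CPM (14.1 to 20.7), an interval that overlapped that of the neutrophil-primed-like cluster. A cluster of 18 cells led by the T cell genes Tcf7 and Trbc1 at homeostasis was at 78.4 CPM (37.6 to 144) and was left out of these ranges for its size.

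Trp53inp1 had another pattern. It was lowest in the megakaryocyte-erythroid-primed-like cluster at homeostasis (16.3 CPM, 12.7 to 20.5) and was at 43.5 CPM in the lymphoid-primed-like cluster. After 5-FU it was between 12.1 and 14.4 CPM in the clusters of megakaryocyte-erythroid-primed-like, neutrophil-primed-like and histone-expressing cells, and at least 30.4 CPM in every other cluster of 50 or more cells. The knockout pools had more megakaryocyte-erythroid marker RNA in both libraries, and Trp53inp1 was higher in the knockout pool at homeostasis (0.19, and 0.29 with the same cluster makeup) and lower in it after 5-FU. The part of cell makeup in these ratios was not tested beyond the weighted values.

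Sesn2 at homeostasis ran from 2.76 CPM (2.06 to 3.63) in the cluster of dividing cells to 14.01 CPM (7.66 to 23.5) in the antigen-presenting-like cluster. That cluster was named from 5 raised markers. Most of its leading genes, such as Ifit3, Ifit1, Isg15 and Rsad2, are interferon-response genes, and H2-Eb1 was also among them. Bax after 5-FU was highest in the megakaryocyte-erythroid-primed-like cluster, at 101 CPM (96.2 to 106.8), and lowest in a cluster of shallow cells, at 26.0 CPM (13.5 to 45.5). Bbc3 at homeostasis was lowest in the cluster of dividing cells led by histone and Ube2c transcripts (3.79 CPM, 2.95 to 4.79) and highest in a cluster led by Clec10a and Cd48 (13.4 CPM, 11.3 to 15.9). Ccng1 after 5-FU was highest in LT-HSC-like cells, at 40.2 CPM (34.7 to 46.3). Trp53 spanned 133 to 206 CPM at homeostasis and 115 to 235 CPM after 5-FU, highest in the neutrophil-primed-like cluster both times. Its lowest 5-FU level (86.1 to 150) was in the cluster of shallow cells, with a median of 1786 UMIs. Mdm2 stayed within a 1.61-fold range at homeostasis and a 1.67-fold range after 5-FU.

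The targets as a sum were, in wild-type LT-HSC-like cells, close to the level of the other wild-type cells at homeostasis and higher after 5-FU. In wild-type pools, the log2 ratio of LT-HSC-like over other cells was -0.02 (-0.10 to 0.06) at homeostasis and 0.21 (0.03 to 0.39) after 5-FU, where it was 0.35 without Bax and 0.08 (-0.06 to 0.21) with a Leiden resolution of 0.5. Its interval also held 0 in thinned cells and in cells with at least 5000 UMIs. The homeostasis interval lay below 0 at a hashtag quantile of 0.95 (-0.19, -0.29 to -0.10) and without the quality trim (-0.13, -0.23 to -0.04). It also lay below 0 with a Leiden resolution of 0.5 (-0.09, -0.16 to -0.02), and held 0 in the other alternatives with an interval. Between genotypes, the sum in LT-HSC-like cells was at 179 and 190 CPM at homeostasis (0.08, -0.02 to 0.18). That interval lay above 0 at a hashtag quantile of 0.95 (0.24, 0.13 to 0.35) and without the quality trim (0.18, 0.05 to 0.31). It also did so without lineage removal (0.12, 0.02 to 0.23) and with a Leiden resolution of 0.5 (0.14, 0.05 to 0.23). In the other alternatives with an interval it held 0. After 5-FU the sum was at 249 and 216 CPM (-0.21, -0.41 to -0.01). The 5-FU value rests on few wild-type cells, and was -0.10 (-0.18 to -0.02) in a class with 1233 of them, made without genes past 1.5-fold between genotypes, and -0.19 (-0.39 to 0.03) in cells with at least 5000 UMIs. At homeostasis the class held 967 wild-type and 1560 knockout cells in 2 clusters that split by genotype, with 781 of the wild-type cells in the cluster led by Chrm3 and 1531 of the knockout cells in the cluster led by Pdgfc. The 5-FU class was a single cluster of 565 cells, 423 of them knockout. The cluster led by Abcg3 and H2-Aa (824 cells) also had 7 of the 9 LT-HSC markers raised but was left unnamed because antigen-presenting genes were among its leading genes. By the 4-pool fit in these cells, edgeR called 0 of the 9 genes tested, with 0 at an unadjusted p under 0.05, where 254 of 13044 genes (1.95%) were called. DESeq2 gave no adjusted p for them.

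The genotype difference of Trp53inp1 in LT-HSC-like cells was in opposite directions in the 2 libraries. At homeostasis it was at 27.3 CPM in wild-type and 39.9 CPM in knockout cells, a log2 ratio of 0.55 (0.30 to 0.80), which was 1.12 at a hashtag quantile of 0.95 and 0.95 without the quality trim. In 5-FU cells the levels were 51.6 and 34.0 CPM, a log2 ratio of -0.61 (-1.07 to -0.12). Its interval held 0 in cells with at least 5000 UMIs (-0.44, -0.93 to 0.08) and after thinning (-0.49, -1.17 to 0.27). When clusters were made without genes past 1.5-fold between genotypes, the classes held 1609 and 1311 cells at homeostasis and 1233 and 969 after 5-FU, and the ratios were 0.46 (0.25 to 0.68) and -0.58 (-0.77 to -0.39). With fewer, larger clusters (Leiden resolution 0.5) the 5-FU ratio was 0.09 (-0.29 to 0.50). Sesn2 in LT-HSC-like cells at homeostasis was at 6.82 and 10.6 CPM (0.63, 0.14 to 1.15), which was 1.02 without the quality trim, with an interval that held 0 in cells with at least 5000 UMIs (0.50, -0.03 to 1.07) and after thinning (0.35, -0.30 to 1.06). Bbc3 after 5-FU was at 21.2 and 12.9 CPM (-0.73, -1.46 to 0.07), and at 19.1 and 13.3 CPM (-0.52, -0.84 to -0.21) in the larger class.

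Within the 5-FU library, Cdkn1a differed between the genotypes in opposite directions in different clusters. Of 10 clusters, 6 were higher and 4 lower in knockout cells, with 2 intervals above 0 and 2 below. The share of all genes with intervals on both sides of 0 over these clusters was not taken, so this mix is not shown to be particular to Cdkn1a. In the cluster led by Meg3, Socs3, Gem and Nr4a1 (1078 wild-type and 485 knockout cells), Cdkn1a was at 4.54 CPM (47 UMIs) in wild-type and 12.4 CPM (78 UMIs) in knockout cells, a log2 ratio of 1.44 (0.91 to 2.00). In the cluster led by Stx3 and Lag3 (940 and 400 cells) it was at 9.37 CPM (66 UMIs) and 2.53 CPM (9 UMIs), a log2 ratio of -1.82 (-3.08 to -0.88). In the lymphoid-primed-like cluster (430 and 167 cells) it was at 20.2 and 10.7 CPM, a log2 ratio of -0.89 (-1.66 to -0.22). The other cluster with an interval above 0 was the histone-led one, at 12.3 and 16.6 CPM (0.43, 0.01 to 0.87). The neutrophil-primed-like cluster, where Cdkn1a was highest, had 22.5 CPM in wild-type and 21.4 CPM in knockout cells (-0.07, -0.42 to 0.27).

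For the cluster led by Meg3 the interval stayed above 0 in each of 3 repeats on subsets or thinned counts of the same cells. The ratio was 1.47 in cells with at least 5000 UMIs, 1.33 when a hashtag had to hold 80% of a cell's hashtag UMIs and 2.41 (1.41 to 3.59) with cells thinned to 4000 UMIs, where 1.14% of wild-type (0.57 to 2.04) and 4.58% of knockout cells (2.89 to 6.86) had a Cdkn1a UMI. The Stx3 and Lag3 cluster gave -1.82 in the deeper cells, -1.66 with the strict hashtag rule and -0.93 (-2.44 to 0.22) after thinning. The lymphoid-primed-like cluster gave -0.88 in the deeper cells, -0.77 (-1.75 to 0.02) with the strict hashtag rule and -1.41 after thinning, with a UMI in 7.44% (wild type) and 1.81% (knockout) of the cells. In the LT-HSC-like class made without genes past 1.5-fold between genotypes, Cdkn1a was at 4.74 and 9.90 CPM after 5-FU, a log2 ratio of 1.06 (0.58 to 1.56). In the smaller LT-HSC-like cluster it was at 7.36 and 9.88 CPM (0.36, -0.71 to 1.74), on 8 and 36 UMIs. Each of these is a comparison of 1 pool with another, without a test.

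**Figure D3:**
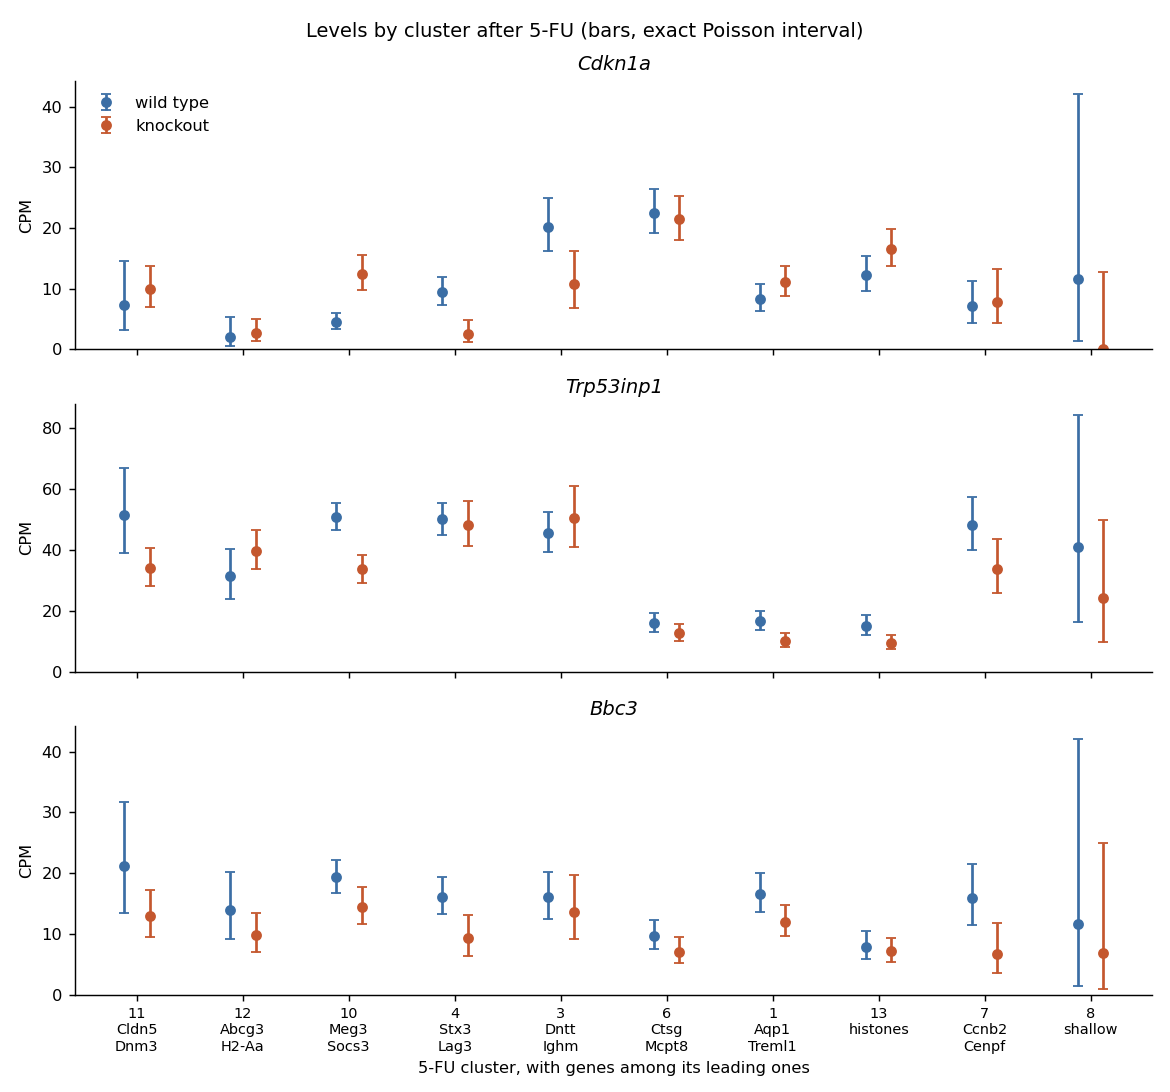
Levels of Cdkn1a, Trp53inp1 and Bbc3 in CPM in each 5-FU cluster with at least 50 cells of both genotypes, wild type in blue and knockout in orange, with exact Poisson 95% intervals and the names of leading genes under each cluster. Cdkn1a was higher in knockout cells in cluster 10 (12.4 against 4.54 CPM) and lower in clusters 3 and 4, and Bbc3 was lower in knockout cells in all 10 clusters.

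Bbc3 and Trp53inp1 differed between the genotypes in a more uniform way after 5-FU. Bbc3 was lower in knockout cells in 10 of 10 clusters with at least 50 cells of each genotype, with 4 intervals wholly below 0 and ratios from -1.19 to -0.14. Trp53inp1 was lower in 8 of 10, with 5 intervals below 0 and none above, and its ratios ran from -0.75 to 0.34. Ccng1 was lower in 9 of 10, with 2 intervals below 0. Bax went both ways. It was higher in knockout cells in 6 of 10 clusters, with 3 intervals above 0 in the megakaryocyte-erythroid-primed-like (92.7 and 108.9 CPM), neutrophil-primed-like (81.0 and 98.98 CPM) and histone-led (71.2 and 84.95 CPM) clusters, and lower in the Stx3 and Lag3 cluster (72.1 and 52.9 CPM, -0.44, -0.70 to -0.20). At homeostasis only 7 clusters held 50 cells of each genotype, and of the genes named here Trp53inp1 was higher in knockout cells in 6 of 7 with 1 interval above 0, and Bbc3 lower in 6 of 7 with none below 0. At homeostasis, clusters made without genes past 1.5-fold between genotypes had Trp53inp1 higher in 8 of 12, with 3 intervals above 0. Bbc3 was lower in 8 of 12 of them, with 2 intervals below 0. After 5-FU, Bbc3 was lower in 10 of 11 such clusters, with 3 intervals below 0 and a highest ratio of 0.17. Trp53inp1 was lower in 10 of 11, with 5 intervals below 0. All clusters of a library are parts of the same pools, so their agreement is not replication. The share of all genes lower in every cluster was not taken.

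Because p53 targets act on the cell cycle, the genes were also compared between cells with 4 or more and cells with 0 UMIs of 20 proliferation genes (Mki67, Top2a and others) after thinning to 4000 UMIs. Over all clusters together, Cdkn1a was at a higher level in the proliferating cells in all 4 pools. In wild-type cells at homeostasis it was at 5.51 CPM in 4489 cells without and 12.0 CPM in 1933 cells with 4 or more proliferation UMIs, a log2 ratio of 1.13 (0.70 to 1.55). In knockout cells it was at 3.17 and 11.1 CPM (1.82, 0.92 to 2.70). After 5-FU the ratios were 0.78 (0.16 to 1.37) in wild-type and 0.67 (-0.00 to 1.30) in knockout cells, the last with an interval that just held 0. At homeostasis, 99.6% (wild type) and 99.7% (knockout) of thinned cells in the histone and Ube2c cluster had 4 or more proliferation UMIs. That cluster held a Cdkn1a UMI in 3.98% and 2.88% of cells. The lymphoid-primed-like cluster, with 4.25% and 4.44% of cells at that limit, held one in 4.33% and 2.22%. Wild-type cells of the LT-HSC-like cluster led by Chrm3, with 0.55% at that limit, held one in 0.41%. The LT-HSC-like cluster led by Pdgfc, with 2.30% and 0.71% at that limit, held one in 1.72% (0.36 to 4.96) and 0.78%. The unnamed cluster led by Agbl4, with 5.04% and 0.85%, held one in 5.88% (2.40 to 11.7) and 0.93% (0.49 to 1.58). Not all homeostasis clusters are listed here. Within the 5-FU clusters the values were as follows for those with the most proliferating cells and for the lymphoid-primed-like one. In the dividing cluster led by Ccnb2 and Cenpf, 72.5% (wild type) and 77.9% (knockout) of thinned cells had 4 or more proliferation UMIs, and a Cdkn1a UMI was found in 4 of 204 (1.96%, 0.54 to 4.94) and 0 of 95 cells, the last allowing a UMI in up to 3.81% of cells at this depth. The histone-led cluster, with 99.7% of cells at that limit in both genotypes, held one in 3.81% and 6.00% of cells, and the neutrophil-primed-like cluster, with 41.2% and 34.2%, in 8.52% and 8.36%. The lymphoid-primed-like cluster, with 3.72% and 3.61% of cells at that limit, held a Cdkn1a UMI in 7.44% (wild type) and 1.81% (knockout) of its thinned cells.

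Trp53inp1 and Sesn2 ran the other way in all 4 pools. Trp53inp1 was at 33.1 CPM in non-proliferating and 26.1 CPM in proliferating wild-type cells at homeostasis (-0.34, -0.58 to -0.11) and at 43.1 and 28.8 CPM after 5-FU (-0.58, -0.94 to -0.24). In knockout cells after 5-FU the gap was wider, at 37.6 and 11.3 CPM (-1.71, -2.38 to -1.15). The difference between the genotypes in this ratio was not tested, with 1 pool of each. Sesn2 in wild-type cells was at 7.02 and 4.01 CPM at homeostasis and 8.77 and 4.46 CPM after 5-FU. Bbc3 was lower in proliferating cells at homeostasis, at 10.97 and 6.08 CPM in wild-type (-0.84, -1.34 to -0.39) and 8.63 and 2.53 CPM in knockout cells (-1.64, -3.44 to -0.48). Trp53 was slightly higher in proliferating cells in all 4 pools, with ratios of 0.19 to 0.33. Bax in knockout cells after 5-FU was at 64.9 and 93.9 CPM (0.53, 0.29 to 0.78), while in wild-type cells it was at 71.8 and 61.0 CPM (-0.23, -0.48 to 0.01). Cells with 3 or 4 proliferation UMIs, next to the limit, were 5.06% of cells at homeostasis and 5.39% after 5-FU.

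The pools also differed in their proliferation genes. The 20 proliferation genes summed to 1234 CPM in wild-type and 970 CPM in knockout cells at homeostasis, with 19 of 20 lower in knockout cells, and to 1178 and 1432 CPM after 5-FU, with 19 of 20 higher. Of all genes tested, 51.3% were higher in knockout cells at homeostasis and 46.0% after 5-FU. Ccnb1, named after its values were seen, was the only one past 1.5-fold, at homeostasis (24.6 and 15.6 CPM, -0.66, -0.80 to -0.52). Trp53inp1, lower in proliferating cells, was higher in the knockout pool at homeostasis and lower in it after 5-FU. In thinned cells with 0 proliferation UMIs, Trp53inp1 was at 33.1 (wild type) and 39.1 CPM (knockout) at homeostasis. After 5-FU these cells were at 43.1 and 37.6 CPM. Cells with 4 or more were at 26.1 and 22.8 CPM at homeostasis and at 28.8 and 11.3 CPM after 5-FU. The part of proliferation in the turn between the libraries was not tested.

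**Figure D4:**
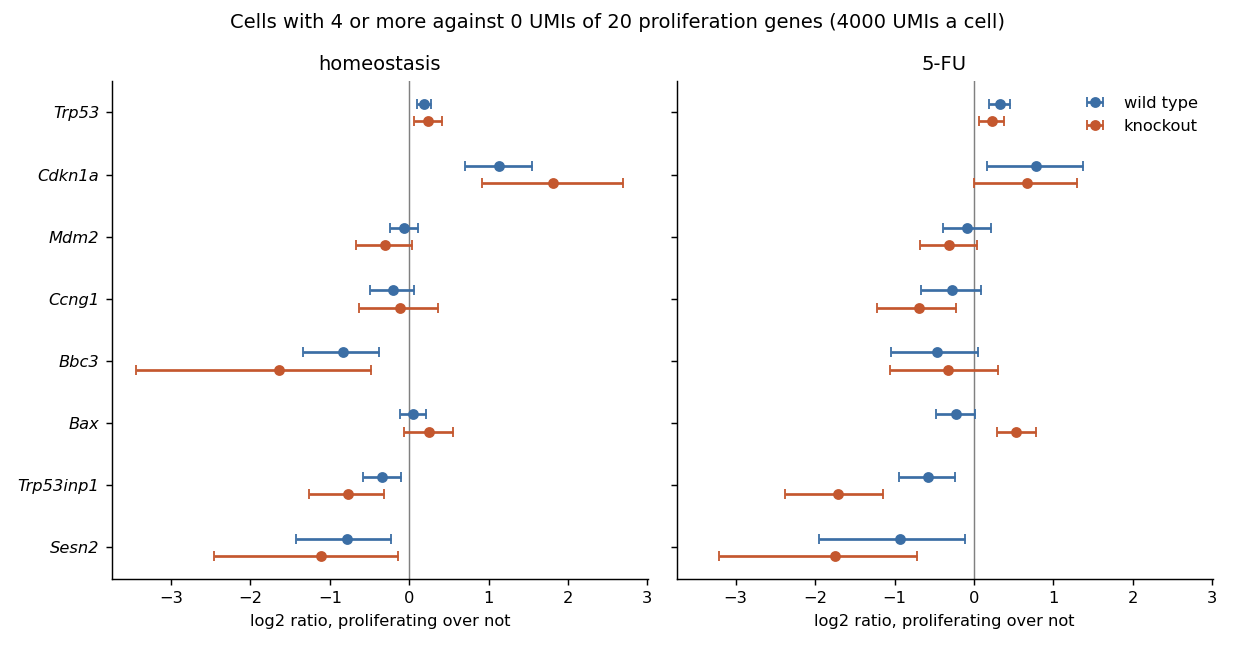
Log2 ratio of cells with 4 or more over cells with 0 UMIs of 20 proliferation genes, by gene, in wild-type (blue) and knockout cells (orange), at homeostasis and after 5-FU, with exact conditional 95% intervals. Phlda3 and Zmat3 had too few UMIs and are not drawn. Cdkn1a lies to the right of 0 and Trp53inp1 and Sesn2 to the left in all 4 pools.

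The homeostasis matrix also held barcodes that were not cells, which show the RNA free in the suspension. In 56160 barcodes with 10 to 100 UMIs, Cdkn1a was at 169.5 CPM (149.6 to 191.3, 262 UMIs) beside 6.82 CPM in kept cells, a 24.9-fold higher level. Phlda3 was at 18.1 CPM beside 0.802 CPM (22.6-fold), and Zmat3 at 11.6 beside 2.47 CPM. The other 7 genes were at 0.658 to 2.21 times their level in cells, with Trp53 the only one that was lower. Hemoglobin RNA, which LSK cells should not hold, was at 360 CPM in these barcodes and at 43.6 CPM in kept cells, 12.1% of that level. At the same fraction the near-empty barcodes would give 20.5 CPM of Cdkn1a, more than the level measured in the cells. The cluster with the least Cdkn1a at homeostasis was at 1.57 CPM (0.72 to 2.98). This fraction is thus too high for Cdkn1a and gives no estimate of how much of its signal is free RNA. The 4 hemoglobin genes were at 41.6 CPM in wild-type and 49.0 CPM in knockout cells at homeostasis, and at 59.3 and 92.7 CPM after 5-FU. The part of free RNA in the levels and ratios of Cdkn1a and Phlda3 was not tested. The 5-FU matrix listed only barcodes called as cells, so the same measure could not be taken there.

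**Figure D5:**
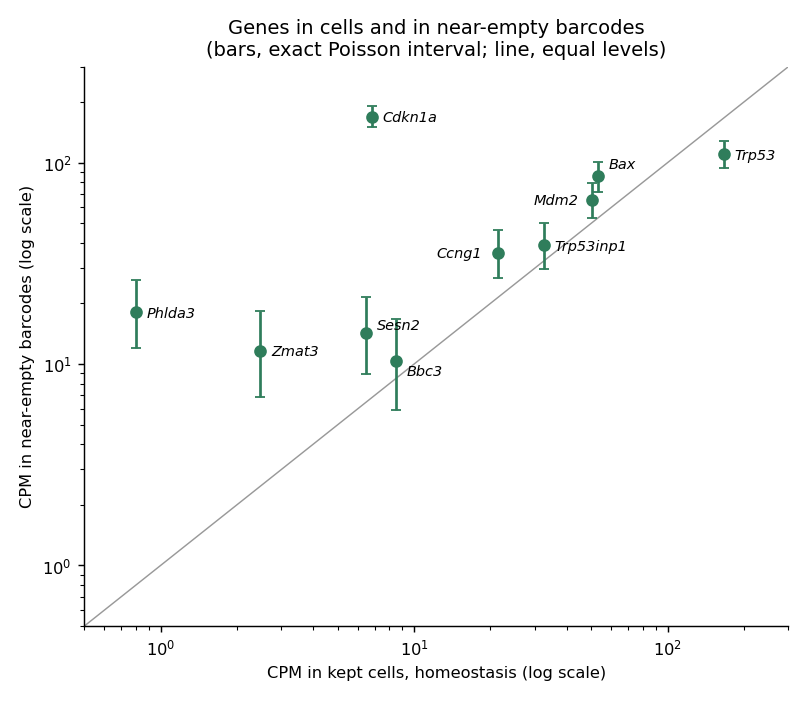
Level of the 10 genes in near-empty barcodes against their level in kept cells at homeostasis, both in CPM on log scales, with exact Poisson 95% intervals and a line of equal levels. Cdkn1a (169.5 against 6.82 CPM) and Phlda3 (18.1 against 0.802 CPM) stand farthest above the line, and Trp53 is below it.

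Set side by side, 9 of the 10 genes were higher in the 5-FU library than in the homeostasis library in wild-type cells, with Mdm2 lower, where 49.1% of 11392 protein-coding genes were higher. In knockout cells 7 of the 10 were higher, beside 47% of 10976 genes, with Mdm2 (-0.32), Trp53inp1 (-0.51) and Sesn2 (-0.11, -0.35 to 0.13) lower. Genes were put in 10 equal classes by total intron length (GENCODE M21, GRCm38). Those with the shortest introns had a median log2 ratio of 5-FU over homeostasis of 0.45 in wild-type cells and those with the longest -1.39, over 11392 genes, so each gene was set beside its own class. For wild-type cells, Bbc3 (0.76, quartiles of its class 0.01 to 0.52), Phlda3 (1.13, 0.20 to 0.70) and Cdkn1a (0.56, 0.01 to 0.52) were above the upper quartile, and Mdm2 (-0.31, -0.21 to 0.38) was below the lower. Ccng1 (0.48), Bax (0.42), Trp53 (0.21) and Trp53inp1 (0.18) were inside the quartiles, while Zmat3 (0.50) and Sesn2 (0.40) were above. In knockout cells Cdkn1a (1.14), Phlda3 (1.42) and Bax (0.64, quartiles 0.09 to 0.61) were above, and Mdm2 (-0.32) and Trp53inp1 (-0.51, quartiles -0.15 to 0.47) below. Library and 5-FU cannot be told apart in these values.

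The median of other p53 targets was near 0 between the genotypes. Of 30 further targets of arrest, apoptosis, repair and metabolism, 29 had at least 50 UMIs, and 3 were higher and 1 lower past 1.5-fold in knockout cells at homeostasis, and 2 higher and 1 lower after 5-FU. Over all genes 10.6% and 8.48% were past that fold, so the counts of 4 and 3 of 29 are near the background. The median log2 ratios were 0.01 and -0.01. Plk2, a polo-like kinase, was at 1.62 and 3.67 CPM at homeostasis (1.18, 0.81 to 1.55) and at 6.73 and 11.1 CPM after 5-FU (0.72, 0.52 to 0.92). Ndn, which encodes the growth suppressor necdin, was at 4.94 and 10.5 CPM (1.09, 0.88 to 1.30) and at 7.70 and 18.98 CPM (1.30, 1.13 to 1.48). Both were thus higher in knockout cells in both libraries.

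The other 3 were past 1.5-fold in 1 library each. Ddit4, an inhibitor of mTORC1 signalling, was at 18.6 and 32.1 CPM at homeostasis (0.79, 0.67 to 0.90) and lower after 5-FU (-0.33). Tnfrsf10b, the mouse TRAIL death receptor, was at 2.78 and 1.57 CPM at homeostasis (-0.81, -1.30 to -0.38). Btg2, an antiproliferative protein, was at 118 and 78.5 CPM after 5-FU (-0.59, -0.65 to -0.53) and at equal levels at homeostasis (0.01). Rps27l, a ribosomal protein-like target and the one with the most UMIs, was at 324 and 328 CPM at homeostasis and 287 and 349 CPM after 5-FU.

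Of 16 regulators of p53 with enough UMIs, none was past 1.5-fold in either library. The one with the most UMIs, Rpl11, a ribosomal protein that can bind Mdm2, was at 2785 and 2712 CPM at homeostasis and 3617 and 3607 CPM after 5-FU. Among BCL2 family members, the partners of Bax and Puma, 1 of 10 was higher and 3 were lower past 1.5-fold in knockout cells at homeostasis, and 1 of 9 was lower after 5-FU, beside 10.6% and 8.48% of all genes. Bok, a pore-forming relative of Bax, was lower both times, at 3.21 and 1.254 CPM (-1.34, -1.87 to -0.87) and at 6.56 and 4.22 CPM (-0.63, -0.90 to -0.37). Bcl2, the anti-apoptotic founder of the family and its member with the most UMIs at homeostasis, was at 156 and 98.6 CPM there (-0.66, -0.72 to -0.61) and at 89.3 and 72.8 CPM after 5-FU (-0.29). Bcl2a1b was at 0.953 and 0.408 CPM at homeostasis (-1.18, -2.20 to -0.37), on reads that near-identical copies of the gene can share. The BH3-only gene Bmf was at 1.62 and 2.66 CPM at homeostasis (0.72, 0.31 to 1.12).

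The genes whose levels ran most like Cdkn1a over 24 clusters of both libraries, centred within each library, were Slc4a8, Prps2, Mrpl33, Atp1b3 and Gpi1, with Pearson correlations of 0.86, 0.82, 0.80, 0.80 and 0.79 among 9532 genes with at least 20 CPM in some cluster. For Ccng1 they were Terf2ip, Slc7a7, Dnajb9, Kdm4b and Ftl1, with 0.93, 0.91, 0.90, 0.89 and 0.88. Clusters of a library share its depth, so these values are descriptions.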

How the data were processed

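The 10 genes and all gene lists were chosen with earlier results of these data known. The deposited values were raw UMI counts of genes by barcodes. The authors had made them with Cell Ranger, in different versions for the 2 libraries per the file headers. The labels name mm9, and the sources used here do not state the build of the matrices. Gene coordinates were taken from GENCODE M21 and promoters from RefSeq. In the unfiltered homeostasis matrix a minimum of 2921 UMIs defined a cell, while the 5-FU matrix held cells already called. Hashtags were classified with HTODemux (Seurat 5.3.0, positive quantile 0.99), and barcodes with a single tag were kept. Barcodes beyond the lowest or highest 2% for UMIs, detected genes or mitochondrial share were taken out, and also those with 2 or more UMIs of lineage genes. Doublets within a genotype remain, since no doublet caller was run. Each library was clustered with Scanpy 1.11.5 without the 10 genes, the gene lists and cell cycle genes. A cluster was named when most of a lineage's markers were raised in it and its leading genes did not go against them.

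UMIs were summed per genotype and library. Ratios are log2 ratios of sums with 0.5 added, over pool totals, with exact conditional (Clopper-Pearson) 95% intervals, and levels have exact Poisson intervals (SciPy 1.17.1). The 4 pools were fitted with edgeR 4.0.16 (library and genotype) and, as an alternative, DESeq2 1.42.0 (R 4.3.3), on all genes, and the scripts were tested on simulated counts. Beyond the 10 genes, list genes past 1.5-fold with an interval leaving out 0 (at most 6 a list and library, 3 for BCL2 genes), the most abundant gene of each list and the 5 genes most like Cdkn1a and Ccng1 over clusters were named. The gene names of the homeostasis matrix came from the 5-FU feature list. The log counts of both matrices correlated at 0.926 in the given row order and at 0.395 or less when shifted by 1 to 3 rows.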

Additional observations from a re-analysis of the deposited data

Results flagged for a closer look

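The genotype ratio of Trp53inp1 over all kept cells was 0.19 on the log2 scale at homeostasis (0.08 to 0.29) and -0.50 after 5-FU (-0.61 to -0.39), and that of Ccng1 was 0.15 (0.03 to 0.28) and -0.14 (-0.25 to -0.03). Both stand out because the knockout pool was higher in one library and lower in the other. For Ccng1 the homeostasis ratio was -0.10 with the same cluster makeup, and 0.11 so weighted with clusters made without genes past 1.5-fold between genotypes. The 5-FU interval of Ccng1 held 0 (-0.06, -0.17 to 0.05) under the 80% hashtag rule. The difference between the libraries was not tested, with 1 pool per genotype in each.

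Cdkn1a at 169.5 CPM and Phlda3 at 18.1 CPM in near-empty barcodes of the homeostasis library stand out as signals outside the cells, above the levels of 6.82 and 0.802 CPM in kept cells.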

How the results depend on the processing

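Of 68 alternative ratios for 6 target sums, 3 had the other sign, in the homeostasis sum over all cells and its ratio of LT-HSC-like to other wild-type cells, both near 0. Of 273 ratios for 31 results on single genes (a gene in a library and population), 17 had the other sign, in 7 of the results. These were Mdm2, Ccng1 and Phlda3 at homeostasis, Cdkn1a and Sesn2 after 5-FU, and in LT-HSC-like cells Bbc3 at homeostasis (same sign in 2 of 8 alternatives) and Trp53inp1 after 5-FU. The last, at 0.089 with a Leiden resolution of 0.5, was the only one of these whose reported value was past 1.5-fold. The homeostasis target sum was -0.034 with the same cluster makeup in both genotypes. It was 0.018 so weighted with clusters made without genes past 1.5-fold between genotypes. The count of genes past 1.5-fold at homeostasis was 1 under a rule that 80% of a cell's hashtag UMIs come from its tag (Sesn2, 0.73), 1 with cells thinned to 4000 UMIs (Cdkn1a, -0.78, beside -0.22 under the 80% tag rule), 1 with the mean of per-cell CPM (Cdkn1a, -0.60) and 3 at a lower fold limit. After 5-FU it was 2 without the quality trim (Bbc3, -0.64, and Trp53inp1, -0.61) and 2 at a lower fold limit. In LT-HSC-like cells at homeostasis the genotype ratio of the sum was 0.24 at a positive quantile of 0.95, and the ratio to other wild-type cells was -0.19 there and -0.13 without the quality trim. The 5-FU sum without Bax was -0.20. The causes were not tested. The 4-pool fit called none of the genes it tested in the alternatives run (10 over all cells, 8 to 10 in LT-HSC-like cells), while DESeq2 gave no adjusted p for them in LT-HSC-like cells, with 3 of 10 at an unadjusted p under 0.05 in LT-HSC-like cells under the 80% tag rule. Over all genes that fit called 312, and 462 by library size only, 612 with no filter on low counts, 206 under the 80% tag rule, 629 after thinning and 206 by DESeq2. In LT-HSC-like cells it called 254, and 585 under the 80% tag rule and 15 after thinning. Clusters made without genes past 1.5-fold between genotypes, and the repeats for Cdkn1a within clusters, were chosen after seeing the data. Leaving out a pool was not possible, since 0 residual degrees of freedom remain. The 4-pool fit, with library as a term, is itself paired by library. Phlda3 and Zmat3 rest on 19 to 101 and 92 to 192 UMIs per pool.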

Other observations

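In barcodes without a single tag the summed targets were near the level of the kept cells, while single targets differed. At homeostasis the sum of the 9 targets was at 190 CPM in 6283 barcodes with no tag and at 186 CPM in 1441 with both tags, beside 182 CPM in kept cells. After 5-FU it was at 212 CPM in 3290 barcodes with no tag and 208 CPM in 434 with both, beside 211 CPM. In the 5-FU barcodes with no tag, Trp53inp1 was at 43.1 CPM (40.2 to 46.2) beside 30.7 CPM in kept cells, and Bbc3 at 8.93 CPM (7.61 to 10.4) beside 12.8 CPM. Cdkn1a was higher in barcodes removed for lineage genes, at 15.3 CPM beside 6.82 CPM in kept cells at homeostasis and at 17.1 beside 11.3 CPM after 5-FU. In 181 barcodes of the 5-FU library in the top 2% of mitochondrial share, with a median of 698 UMIs, the target sum was at 26.9 CPM (7.32 to 68.8) on 4 UMIs.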
